A study of Mus musculus with 4 samples.

Results

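UDP-glucuronosyltransferases are the enzymes that attach glucuronic acid to bilirubin, steroid hormones, bile acids and drugs, and 10 of their genes were followed in 4 mouse livers. The 10 genes (Ugt1a1, Ugt1a6a, Ugt1a9, Ugt2a3, Ugt2b1, Ugt2b5, Ugt2b34, Ugt2b35, Ugt2b36 and Ugt2b38) were taken by symbol, as 10 of the 46603 gene rows of the count table and 10 of the 22 rows whose symbol begins with Ugt. All 10 passed the filter on low counts, which kept 13001 genes. The study asked what the loss of HuR, an RNA-binding protein encoded by Elavl1, does to the liver transcriptome of mice with diet-induced fatty liver disease.

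All 4 animals were labelled male and were HuR flox/flox mice on the C57BL/6 J background and received a Western diet with 42% of its energy from fat and 0.1% cholesterol, with sugar water holding 23.1 g/L d-fructose and 18.9 g/L d-glucose (WDSW), for 4 weeks. The 2 mice labelled HuR hKO (mice 3 and 4) had been injected in the tail vein with AAV8-TBGP-Cre, and the 2 control mice (mice 1 and 2) with AAV8-TBGP-GFP, so both groups carried the floxed alleles and a virus. The thyroxine-binding globulin promoter restricts Cre to hepatocytes, so other liver cells keep HuR, and the ages of the mice are not given in the sources used here. Total RNA of the liver was sequenced.

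These enzymes sit in the membrane of the endoplasmic reticulum of hepatocytes, draw on UDP-glucuronic acid made in the cytosol, and release water-soluble glucuronides that leave in bile or blood. The Ugt1a genes form 1 locus in which a first coding exon particular to the enzyme, encoding the part that binds the substrate, is joined to a common set of exons encoding the part that binds UDP-glucuronic acid. The Ugt2 genes followed here are separate genes in a cluster that arose by duplication, and several are near copies of one another.

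In the GENCODE M21 annotation of GRCm38, the 3 Ugt1a members lie on the plus strand of chromosome 1, and all 9 Ugt1a genes carry the same 4 exons at the end of the locus apart from the length of the last one. Ugt1a9 (ENSMUSG00000090175) spans chr1:88070800-88218997, Ugt1a6a (ENSMUSG00000054545) spans chr1:88134809-88218997 and Ugt1a1 (ENSMUSG00000089960) spans chr1:88211959-88218997. The common exons hold 1311 bases of the transcript of each of these members, which is 58.9% of the Ugt1a1 transcript, 57.1% of the Ugt1a6a transcript and 59.9% of the Ugt1a9 transcript. The 60 bases across the join show this arrangement, with the last 30 bases of the member's own coding exon in lower case and the first 30 bases of the first common exon (chr1:88215044-88215073) in capitals; only the lower case part tells the 3 transcripts apart. The own exons end at chr1:88212842-88212871 for Ugt1a1, chr1:88139302-88139331 for Ugt1a6a and chr1:88071649-88071678 for Ugt1a9.
Ugt1a1: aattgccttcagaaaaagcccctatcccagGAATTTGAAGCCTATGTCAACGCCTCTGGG
Ugt1a6a: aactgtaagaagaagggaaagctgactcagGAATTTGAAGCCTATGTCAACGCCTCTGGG
Ugt1a9: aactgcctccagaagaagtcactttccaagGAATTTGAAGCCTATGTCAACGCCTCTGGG

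**Figure D1:**
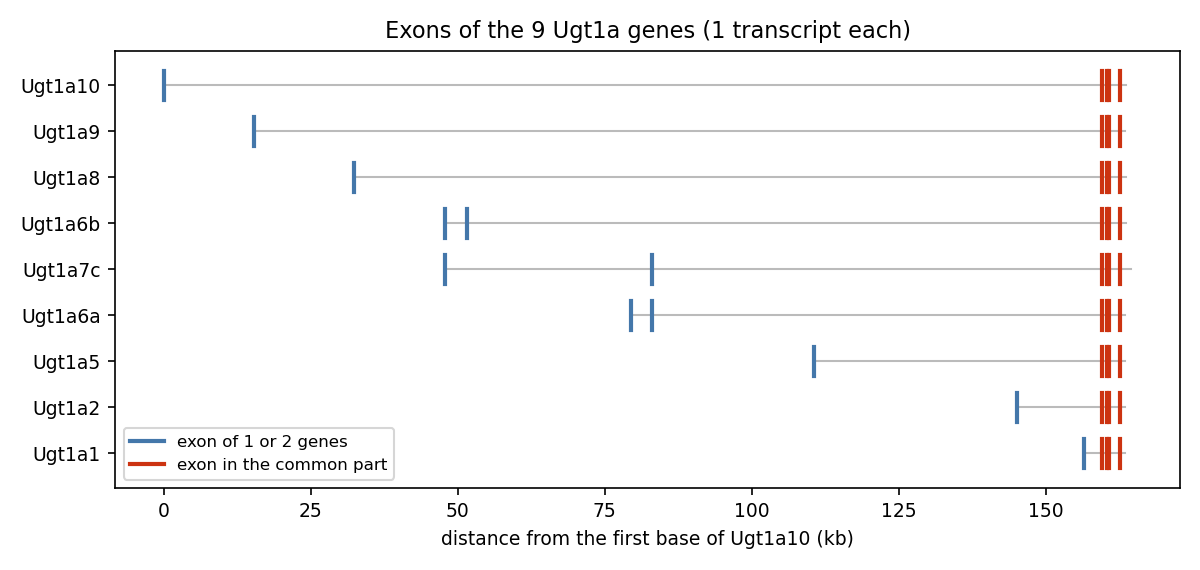
Exons of 1 transcript of each of the 9 Ugt1a genes, drawn as vertical marks against the distance in kb from the first base of Ugt1a10. Blue marks are exons of 1 or 2 genes and red marks are the 4 exons of the common part, where all 9 genes lie on top of each other.

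The 7 Ugt2 members lie on chromosome 5, all on the minus strand except Ugt2b35, and each has 6 exons in the transcript with the longest coding sequence. They are Ugt2b34 (chr5:86889767-86906937), Ugt2b1 (chr5:86916638-86926530), Ugt2b35 (chr5:87000860-87013275), Ugt2b36 (chr5:87065927-87092555), Ugt2b5 (chr5:87124960-87140318), Ugt2a3 (chr5:87324972-87337195) and Ugt2b38 (chr5:87409942-87424203). Their coding sequences were between 64.7% and 97.0% identical over 21 pairs, and the closest pair was Ugt2b5 and Ugt2b38, which differ at 47 of 1590 coding bases. The 90 coding bases with the most differences between them (coding bases 1422 to 1511, counted from the start codon) hold 10 of the 47, given in capitals.
Ugt2b5: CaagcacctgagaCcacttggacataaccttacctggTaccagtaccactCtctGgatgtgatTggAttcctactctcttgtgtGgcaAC
Ugt2b38: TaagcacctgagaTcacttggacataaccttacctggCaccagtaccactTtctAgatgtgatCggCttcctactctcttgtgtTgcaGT

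Of the 50-base words in the transcripts of each member, 58.2% for Ugt1a1, 52.1% for Ugt1a6a and 62.0% for Ugt1a9 also occurred in transcripts of another gene. The values were 41.7% for Ugt2b5 and 37.4% for Ugt2b38, and at most 4.55% for the other Ugt2 members. Counts of these 5 genes therefore depend on how reads matching several genes were divided, and the split between Ugt2b5 and Ugt2b38 and among the Ugt1a rows is uncertain. The Ugt1a exons also overlap those of Gm20528 on the opposite strand, and whether the counting used strand is not given in the sources used here.

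**Figure D2:**
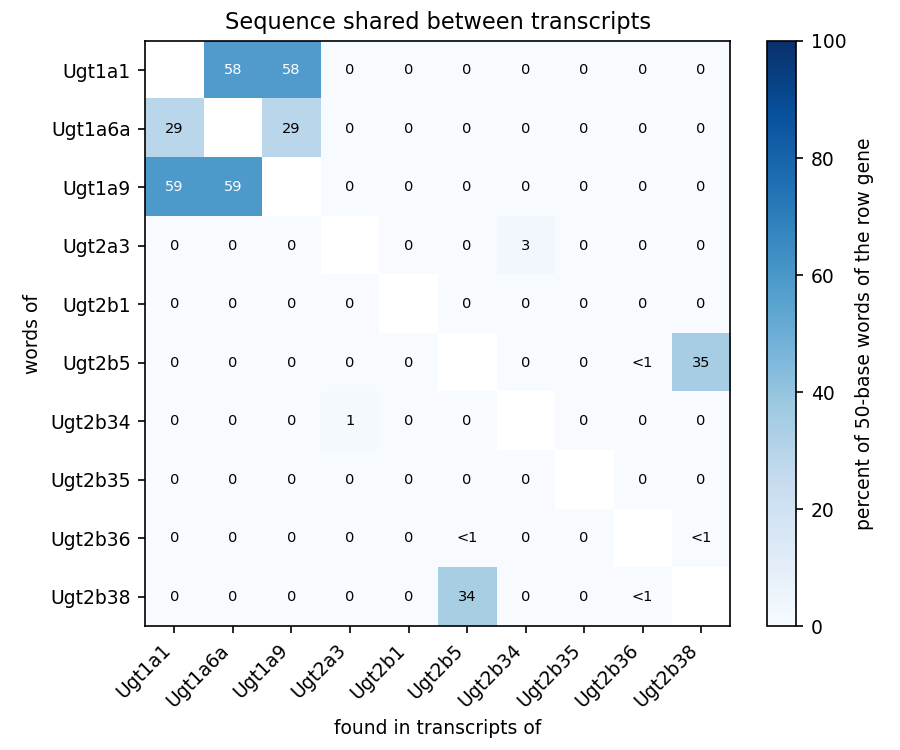
Percent of the 50-base words in transcripts of the gene on the vertical axis that also occur in transcripts of the gene on the horizontal axis, for the 10 members. The Ugt1a members share between 28.7% and 59.0% of their words with each other, Ugt2b5 and Ugt2b38 share 34.8% and 34.1%, and no Ugt1a member shares a word with a Ugt2 member.

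The 3 Ugt1a members have separate annotated start sites. The 250 bases before the RefSeq start (GRCm38.p6) are shown for these members, whose last exons are common, and for Ugt2b5 and Ugt2b38, whose stretches were 80.0% identical in a global alignment. Capitals mark matches on either strand to GTTAAT, the core of the site of HNF1 factors, and to AGGTCA, the element of nuclear receptors.
Ugt1a1, chr1:88211709-88211958, plus strand: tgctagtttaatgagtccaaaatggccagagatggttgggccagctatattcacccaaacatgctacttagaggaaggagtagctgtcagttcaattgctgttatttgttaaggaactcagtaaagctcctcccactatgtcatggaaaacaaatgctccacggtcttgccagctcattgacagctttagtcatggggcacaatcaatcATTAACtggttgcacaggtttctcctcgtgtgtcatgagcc
Ugt1a6a, chr1:88134559-88134808, plus strand: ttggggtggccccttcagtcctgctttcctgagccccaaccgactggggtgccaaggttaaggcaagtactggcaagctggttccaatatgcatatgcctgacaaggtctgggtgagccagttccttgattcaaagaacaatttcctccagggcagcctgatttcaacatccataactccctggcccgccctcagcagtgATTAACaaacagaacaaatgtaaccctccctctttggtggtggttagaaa
Ugt1a9, chr1:88070529-88070778, plus strand: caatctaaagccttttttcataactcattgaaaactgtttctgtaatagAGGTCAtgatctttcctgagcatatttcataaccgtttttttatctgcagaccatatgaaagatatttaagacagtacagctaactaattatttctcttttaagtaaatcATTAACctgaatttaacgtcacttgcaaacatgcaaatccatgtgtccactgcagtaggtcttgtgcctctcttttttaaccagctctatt
Ugt2b5, chr5:87140341-87140590, minus strand: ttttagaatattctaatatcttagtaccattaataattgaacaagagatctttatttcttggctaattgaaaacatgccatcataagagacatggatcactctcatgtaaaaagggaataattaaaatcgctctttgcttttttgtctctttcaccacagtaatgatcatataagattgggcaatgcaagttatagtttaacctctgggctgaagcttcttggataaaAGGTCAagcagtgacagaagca
Ugt2b38, chr5:87424204-87424453, minus strand: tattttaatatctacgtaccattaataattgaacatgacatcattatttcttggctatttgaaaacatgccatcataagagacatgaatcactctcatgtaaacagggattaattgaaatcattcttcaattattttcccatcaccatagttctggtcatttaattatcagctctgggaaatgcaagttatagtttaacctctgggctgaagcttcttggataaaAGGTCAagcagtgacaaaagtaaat

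GTTAAT occurred in this stretch in 4 of the 10 members (Ugt1a1, Ugt1a6a, Ugt1a9 and Ugt2a3) and in 6.43% of the 32851 stretches of the same length. AGGTCA occurred in 5 of 10 (Ugt1a9, Ugt2b5, Ugt2b35, Ugt2b36 and Ugt2b38) and in 14% of all stretches. In Ugt2b5, Ugt2b36 and Ugt2b38 it began 22 to 25 bases before the start amid the same letters, so these matches are not independent of each other. The shares over all stretches were not matched for base composition. GCGTG, the core of the xenobiotic response element, and TGACNNNGC, the core of the antioxidant response element, were found in 0 of 10 members and in 28.2% and 10.2% of all stretches. Read on the other strand, AGGTCA is TGACCT and shares the letters TGAC with TGACNNNGC. Ugt1a9 was the only member whose stretch held both of the first 2, with AGGTCA 201 bases and the GTTAAT match 91 bases before the start.

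HuR is known to bind AU-rich stretches of mRNA, for which ATTTA (in DNA letters) is the core pattern. Ugt1a1, Ugt1a6a and Ugt1a9 have the same 573-base 3′ untranslated region with 2 such pentamers, and 26.9% of 2090 genes with a region of like length (within 20%) had as many. The Ugt2 members had between 2 (Ugt2a3, Ugt2b5, Ugt2b36 and Ugt2b38) and 9 (Ugt2b35, of 1737 bases, a number reached by 4.64% of genes of like length). The longer pattern TTATTTATT occurred once, in Ugt2b34, and in 8.06% of genes of like length. A 25-base window around the pentamer (capitals) is shown for the 2 sites common to the Ugt1a members, for the first site of Ugt2b5 and of Ugt2b38, and for the site in Ugt2b34 that holds the longer pattern; a match is a description of the sequence, not of binding.
Ugt1a members, base 126 after the stop codon: cattcagcacATTTAaaaataataa
Ugt1a members, base 246: tctgttggtaATTTAcagaaagtct
Ugt2b5, base 48: cctcattcttATTTAtgaaccacct
Ugt2b38, base 48: cctcattctaATTTAtgaaccacct
Ugt2b34, base 757: ctttaactttATTTAttgcagactt

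The libraries held between 13032095 and 19715577 counts, and reads on the 22 Ugt rows took between 0.326% and 0.419% of them. Levels are given as CPM, the count scaled to a library of common size, with TMM factors that lay between 0.957 and 1.04. No pair of libraries was alike within sampling noise, since chi-square divided by its degrees of freedom was at least 23.1 in all pairs. The hepatocyte markers Alb, Cyp2e1 and others summed to 79307 and 80884 CPM in the controls and to 76063 and 88876 CPM in the libraries labelled HuR hKO. Elavl1, the targeted gene, had 377 and 347 counts in control mice 1 and 2 and 541 and 648 counts in mice 3 and 4. Its level was 28.4 and 25.9 CPM in the controls and 37.7 and 34.4 CPM in the libraries labelled HuR hKO. It was thus higher under that label, and the groups did not overlap. The log2 fold change was 0.41 (SE 0.135), with unadjusted p = 0.016 and Benjamini-Hochberg adjusted p = 0.545 in edgeR's quasi-likelihood test. The change was positive in all 14 alternative ways of processing, from 0.33 to 0.72. The study itself reports lower HuR mRNA and protein in livers of HuR hKO mice, and loss of HuR staining in hepatocytes. Why the counts go the other way was not tested. Counts of the whole gene include exons outside the deleted part and cells that keep HuR. Whether either has a part in the higher Elavl1 level was not tested. The groups are named by their labels throughout, and every direction below rests on those labels.

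Under these labels, 9 of the 10 members had a fitted level below the controls and 1, Ugt1a9, above, although without scaling for library size 7 were above. Without scaling the median log2 fold change of all genes moved to 0.31, and 9 of the 10 members lay below that median. The median log2 fold change of the members was -0.21, against 0.0020 for all 13001 genes. At an adjusted p under 0.05, 0 of the 10 members were called, beside 0.0231% of all genes (3 genes), in edgeR's quasi-likelihood test; DESeq2 called 2 members and 85 genes in all, edgeR's exact test 2 members and 119 genes, and limma-voom 0 members and 2 genes. At an unadjusted p under 0.05, 4 of the 10 were called (Ugt1a9, Ugt2b38, Ugt2b1 and Ugt1a1), beside 7.43% of all genes. Ugt2b1 was no longer called without control mouse 1, Ugt1a1 without control mouse 2, and both were lost without mouse 3 or without scaling, which left 2 of the 10. A fold change of at least 1.8 with an unadjusted p under 0.05 was reached by 1 member in the higher direction, Ugt1a9 (1.21% of all genes), and by 1 in the lower direction, Ugt2b38 (0.915% of all genes). With 2 mice a group, an exact two-sided permutation test of 1 gene cannot go below p = 0.333.

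**Figure D3:**
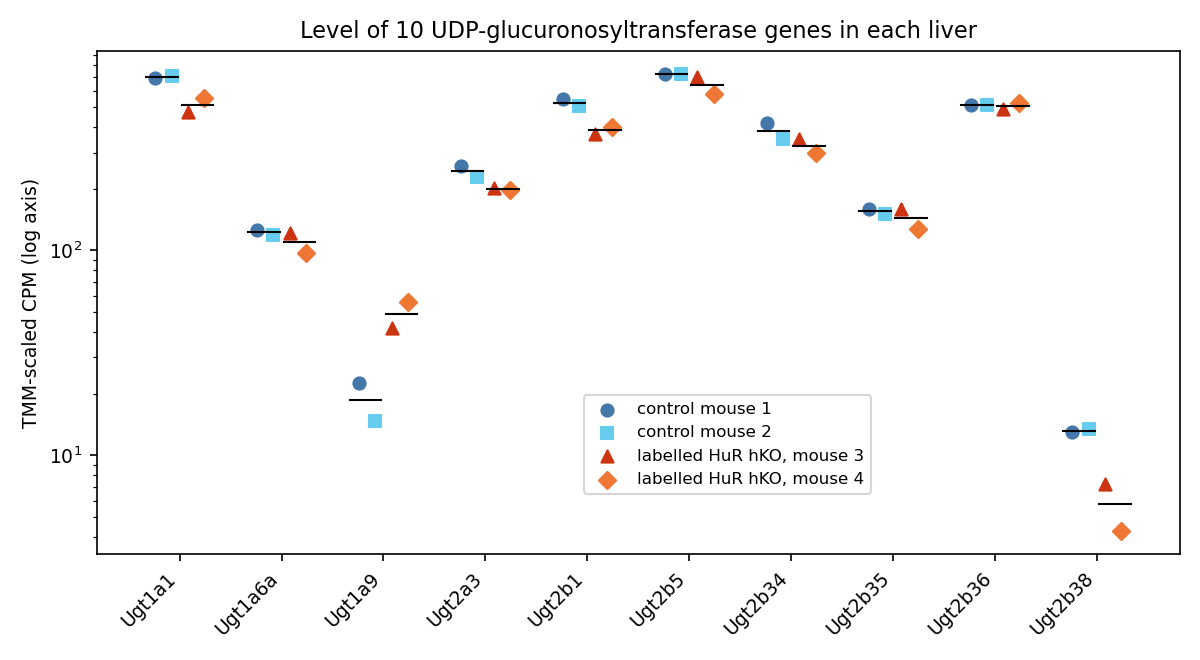
TMM-scaled CPM on a log axis for the 10 members in each of the 4 livers, with the mean of each group of 2 as a black line. For Ugt1a9 both libraries labelled HuR hKO lie above both controls, and for Ugt1a1, Ugt2a3, Ugt2b1, Ugt2b5 and Ugt2b38 both lie below; without scaling for library size, only Ugt2b38 among these 5 keeps both below.

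Ugt1a9, which takes phenols and many drugs, was the member with the clearest higher level. It had 300 and 196 counts in control mice 1 and 2 and 601 and 1050 counts in mice 3 and 4. These are levels of 22.6 and 14.6 CPM in the controls and of 41.9 and 55.7 CPM in the libraries labelled HuR hKO, means of 18.6 ± 5.62 and 48.8 ± 9.77 CPM (SD, n = 2). The groups did not overlap, and the lower of the libraries labelled HuR hKO stood above the higher control. The fold change was 2.63 (log2 1.39, SE 0.225), with adjusted p = 0.109 in edgeR's quasi-likelihood test. Over the alternatives the adjusted p ran from 3.55e-06 to 0.601, and it was under 0.05 with DESeq2, with edgeR's exact test, without a filter on low counts, without scaling and without control mouse 1 (0.00824).

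Ugt1a10 is the nearest copy of Ugt1a9 in the locus, with 95.3% identical coding bases. Of the 50-base words of Ugt1a9, 61.8% occur in Ugt1a10, but 59.0% occur in Ugt1a1 too, mostly through the common exons. The counts of Ugt1a10 were 18 and 130 in the controls and 117 and 143 in the libraries labelled HuR hKO. Control mouse 1, which had more Ugt1a9 counts than control mouse 2, thus had fewer Ugt1a10 counts. The summed level of both rows was 23.9 and 24.3 CPM in the controls and 50.1 and 63.3 CPM in mice 3 and 4. The sum differed between the controls by less than either row did, and its groups did not overlap. The summed level in the libraries labelled HuR hKO was 235% of that in the controls. How shared reads were divided between these rows was not tested.

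Ugt1a1, the enzyme that conjugates bilirubin, had 9228 and 9510 counts in the controls and 6776 and 10491 counts in mice 3 and 4. The levels were 694 and 710 CPM in the controls and 473 and 557 CPM in the libraries labelled HuR hKO. Both of the latter lay below both controls, but mouse 4 had the most counts of the 4 before scaling. The log2 fold change was -0.45 (SE 0.151), with adjusted p = 0.556 in edgeR's test.

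Ugt1a6a, which takes small planar phenols, had levels of 126 and 119 CPM in the controls and 122 and 97.3 CPM in mice 3 and 4, and its groups overlapped (log2 fold change -0.16, SE 0.147; adjusted p = 0.846 in edgeR's test). Its near copy Ugt1a6b had 180 and 185 CPM in the controls and 183 and 186 CPM in mice 3 and 4. Ugt1a7c, annotated with a transcript that uses an exon of Ugt1a6a, had 25.3 and 26.4 CPM in the controls and 9.49 and 21.0 CPM in mice 3 and 4 (log2 fold change -0.75, SE 0.305; adjusted p = 0.633 in edgeR's test). The 3 rows together held 332 and 331 CPM in the controls and 314 and 304 CPM in mice 3 and 4.

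The 9 Ugt1a rows together, a sum that does not depend on how reads in the common exons were divided among them, held 1086 and 1159 CPM in the controls and 890 and 951 CPM in the libraries labelled HuR hKO. The mean of the latter was 82.0% of the control mean, and the groups did not overlap. Within this sum, Ugt1a1 took 62.6% ± 1.93 of the counts in the controls and 55.8% ± 3.86 in the libraries labelled HuR hKO (SD, n = 2). Ugt1a9 took 2.08% (exact 95% binomial interval 1.85 to 2.33) and 1.26% (1.09 to 1.45) in control mice 1 and 2. It took 4.71% (4.35 to 5.09) and 5.86% (5.52 to 6.22) in mice 3 and 4. The intervals of the groups did not meet, but neither did those of the mice within each group. They cover counting error only, not variation between mice or the division of shared reads. The share of Ugt1a6b was 16.6% and 16% in the controls and 20.5% and 19.5% in mice 3 and 4, also without overlap. Its own level hardly differed (log2 fold change 0.011, SE 0.125), so this higher share goes with the lower sum and not with more Ugt1a6b.

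**Figure D4:**
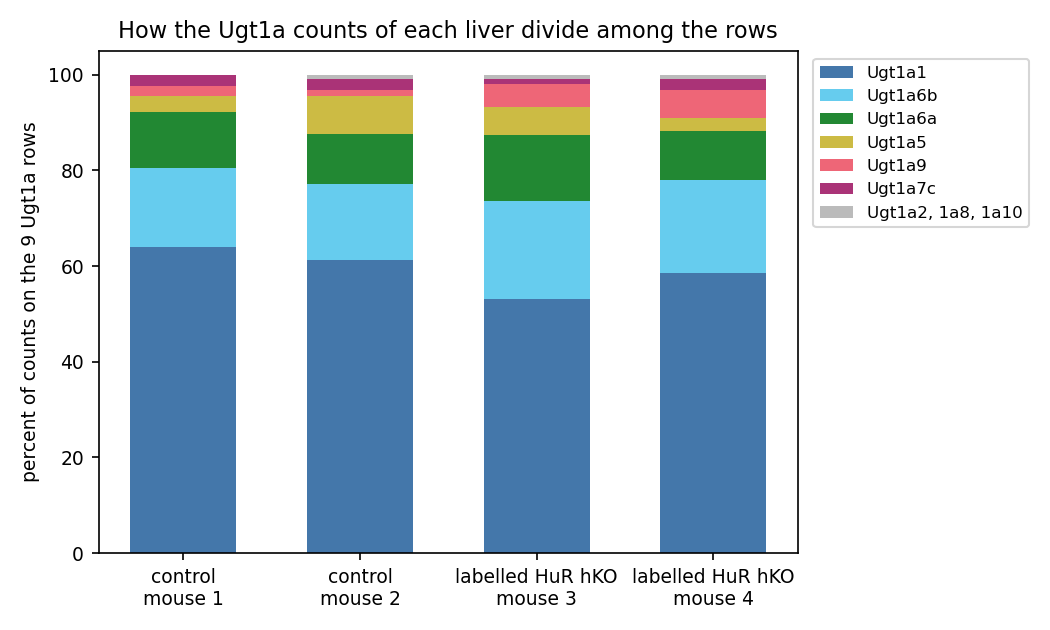
Percent of the counts on the 9 Ugt1a rows that fell on each row, for each of the 4 livers. Ugt1a1 takes between 53.1% and 64.0%, and the Ugt1a9 segment is 2.08% and 1.26% in the controls and 4.71% and 5.86% in the libraries labelled HuR hKO.

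Ugt2b38, a member known for a higher level in male than in female mouse liver, was the member with the clearest lower level. It had 173 and 179 counts in the controls and 104 and 80 counts in mice 3 and 4, or 13.0 and 13.4 CPM against 7.26 and 4.25 CPM. The controls were close to each other, both libraries labelled HuR hKO lay below them, and mouse 4 was the lowest. The level was 0.431 of the control level (log2 fold change -1.21, SE 0.255), with adjusted p = 0.223 in edgeR's test. Over the alternatives the adjusted p ran from 0.00297 to 0.827, and it was under 0.05 with DESeq2, with edgeR's exact test and without a filter on low counts.

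Ugt2b5, the near copy of Ugt2b38, had 722 and 729 CPM in the controls and 703 and 580 CPM in mice 3 and 4 (log2 fold change -0.18, SE 0.156; adjusted p = 0.839 in edgeR's test). Its groups did not overlap, but mouse 3 was much nearer to the controls than to mouse 4. Ugt2b38 held under 2% of the sum of both rows, which was 735 and 742 CPM in the controls and 710 and 585 CPM in mice 3 and 4, so a small change in the division of shared reads would alter Ugt2b38 by a large factor and Ugt2b5 hardly at all. The share of reads so divided was not measured in these files.

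Ugt2b1, another member known to be higher in male mouse liver, shared 0% of its 50-base words with other genes, so its counts do not depend on such a division. It had 546 and 504 CPM in the controls and 372 and 401 CPM in the libraries labelled HuR hKO, from 7251, 6753, 5331 and 7560 counts. The groups did not overlap, and the log2 fold change was -0.44 (SE 0.140), with adjusted p = 0.526 in edgeR's test. Ugt2a3, whose human counterpart takes bile acids, had 259 and 227 CPM in the controls and 202 and 198 CPM in mice 3 and 4 (log2 fold change -0.28, SE 0.135; adjusted p = 0.683 in edgeR's test), also without overlap.

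The other 3 Ugt2 members did not separate the groups. Ugt2b34 had 418 and 348 CPM in the controls and 349 and 298 CPM in mice 3 and 4. Its overlap was narrow, with 348.1 CPM in control mouse 2 and 348.6 CPM in mouse 3. Ugt2b35 had 160 and 150 CPM in the controls and 160 and 127 CPM in mice 3 and 4. Ugt2b36 had 510 and 513 CPM in the controls and 488 and 523 CPM in mice 3 and 4, and its log2 fold change of -0.016 (SE 0.138) was the smallest of the members. The 7 Ugt2 members together held 2628 and 2485 CPM in the controls and 2281 and 2131 CPM in the libraries labelled HuR hKO, 86.3% of the control mean.

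Counted over the members, the groups did not overlap for 5 in the lower direction, beside 18.8% of all genes, and for 1 in the higher direction, beside 19.3% of all genes. The lower count was 6 with DESeq2 size factors or upper quartile factors, 4 with total counts alone and 1 without scaling. The 10 members together held 3470 and 3330 CPM in the controls and 2917 and 2841 CPM in mice 3 and 4, 84.7% of the control mean. In bulk liver, fewer cells of a type and less RNA per cell cannot be told apart.

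**Figure D5:**
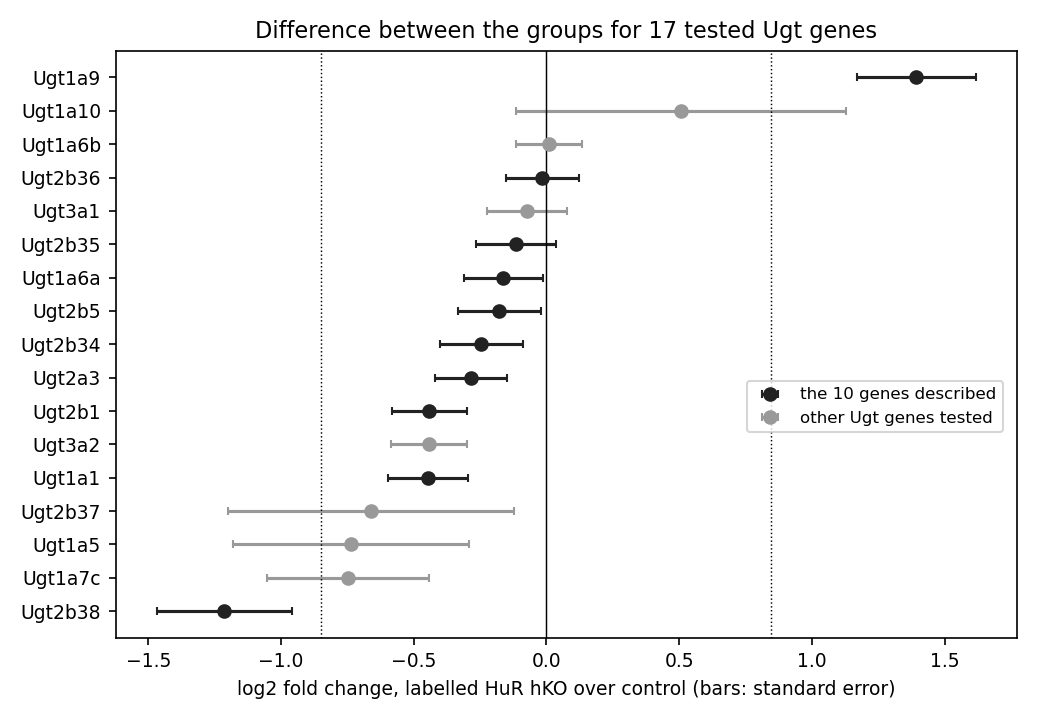
Log2 fold change (labelled HuR hKO over control) of the 17 tested Ugt genes, with bars of 1 standard error; black points are the 10 members, and dotted lines mark a fold change of 1.8. Ugt1a9 at 1.39 and Ugt2b38 at -1.21 lie beyond the dotted lines, and the other 8 members lie between -0.45 and -0.016, 6 of which are above 0 without scaling for library size.

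Per kilobase of merged exons, the control levels ran from 391 CPM per kb for Ugt2b5 to 6.98 CPM per kb for Ugt2b38. Between them came Ugt1a1 (316), Ugt2b36 (248), Ugt2b1 (204), Ugt2a3 (115), Ugt2b34 (88.8), Ugt2b35 (46.1), Ugt1a6a (28.4) and Ugt1a9 (8.50), all as control means in CPM per kb. Of the 9 neighbouring pairs in this order, the libraries overlapped only for Ugt1a9 and Ugt2b38. In the libraries labelled HuR hKO, Ugt2b36 (246 CPM per kb) stood above Ugt1a1 (231 CPM per kb), though their libraries overlapped, and Ugt1a9 at 22.3 CPM per kb overlapped with Ugt1a6a at 25.4 CPM per kb. Ugt2b38 was again the lowest, at 3.04 CPM per kb.

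Of the other 12 Ugt symbols, 7 passed the filter, 0 had an adjusted p under 0.05 in edgeR's test, DESeq2 or limma-voom, and 2 (Ugt1a7c and Ugt3a2) had an unadjusted p under 0.05, beside 7.43% of all genes. Without control mouse 1 all 7 were below the remaining control and 3 were called at the unadjusted threshold; without control mouse 2, 4 of the 7 were above it and 1 had an adjusted p under 0.05; without mouse 3, 1 was called at the unadjusted threshold. Ugt3a2, which uses sugars other than glucuronic acid, had 306 and 294 CPM in the controls and 202 and 240 CPM in mice 3 and 4 (log2 fold change -0.44, SE 0.143; adjusted p = 0.530 in edgeR's test), and Ugt3a1 had 90.9 and 83.5 CPM against 73.0 and 92.6 CPM. Ugt1a5 varied widely within groups, with 35.6 and 93.8 CPM in the controls and 52.5 and 25.6 CPM in mice 3 and 4. Ugt2b37 had between 10 and 22 counts in a library, Ugt1a2 at most 9, Ugt1a8 13 in mouse 4 alone and Ugt8a at most 8. Ugt2a1 and Ugt2a2, genes of the olfactory epithelium, had 0 counts in all 4 libraries, which by counting error alone allows up to 0.226 CPM, but 97.0% and 93.6% of their 50-base words occur in other genes too, so the 0 sets no limit on their own level.

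By their 4 levels on the log2 scale, centred on the mean, the genes nearest to Ugt1a9 among 8222 candidates were Tubb2a (distance 0.314), Cyp4a14 (0.378) and Rgs16 (0.405). Tubb2a had 39.4, 26.1, 61.4 and 77.1 CPM in mice 1 to 4. The nearest to Ugt2b38 were Gnl3l (0.150), Mreg (0.192) and Tnpo2 (0.271), and Gnl3l had 14.1, 13.0, 8.02 and 4.67 CPM. With 4 libraries, a short distance says only that these values lie close together.

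Of 8 genes listed around the supply of UDP-glucuronic acid, sugar carriers among them, 1 had an unadjusted p under 0.05, beside 7.43% of all genes. It was Slc37a4, the glucose 6-phosphate carrier (214 and 208 CPM in the controls, 239 and 316 CPM in mice 3 and 4). Ugdh, which oxidises UDP-glucose to UDP-glucuronic acid, had 129 and 128 CPM in the controls and 178 and 133 CPM in mice 3 and 4 (log2 fold change 0.27, SE 0.162), and was among the genes not called. The most abundant of this list, Ugp2, which makes UDP-glucose, had 437 and 417 CPM against 457 and 489 CPM. Pgm1, which makes glucose 1-phosphate, had 283 and 302 CPM against 275 and 301 CPM. Neither Ugp2 nor Pgm1 was called, so the called gene was a carrier and not an enzyme of this route. The count of 1 was 2 without control mouse 1 and 0 without control mouse 2.

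Among 9 transporters that carry glucuronides or take up organic anions, 1 was called higher and 1 lower at an unadjusted p under 0.05, beside 4.04% and 3.39% of all genes. Slco1a4 had 17.3 and 11.6 CPM in the controls and 24.4 and 28.6 CPM in mice 3 and 4 (log2 fold change 0.88, SE 0.203; adjusted p = 0.312 in edgeR's test). Slco1a1 had 438 and 299 CPM in the controls and 239 and 226 CPM in mice 3 and 4 (log2 fold change -0.66, SE 0.189; adjusted p = 0.448 in edgeR's test). The groups of both did not overlap, in opposite directions, and without mouse 3 the higher count was 2. Abcc2, the pump that exports bilirubin glucuronide into bile, had 515 and 470 CPM against 449 and 477 CPM, and the most abundant transporter, Slco1b2, had 1039 and 1011 CPM against 902 and 817 CPM.

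Of 4 genes that turn heme into bilirubin, 0 had an unadjusted p under 0.05; the most abundant were Blvrb, with 119 and 133 CPM in the controls and 151 and 155 CPM in mice 3 and 4, and Hmox2, with 40.2 and 43.0 CPM against 44.2 and 50.1 CPM. Of 10 genes that break down glucuronides or glucuronic acid, Cryl1 was called higher (log2 fold change 0.42, SE 0.162) and Xylb lower (-0.37, SE 0.144) at an unadjusted p under 0.05, beside 4.04% and 3.39% of all genes. Neither call held without control mouse 1 or without mouse 4. The most abundant of the 10 were Rgn, with 1038 and 1224 CPM against 1091 and 1123 CPM, and Akr1a1, with 406 and 463 CPM against 505 and 530 CPM.

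Of 16 tested transcription factors and partners known to act on Ugt genes, Ppara was called higher and Foxa1 lower at an unadjusted p under 0.05, beside 4.04% and 3.39% of all genes. The call of Ppara was lost without control mouse 2 or without mouse 4. The call of Foxa1 was lost without control mouse 1 or without mouse 3. Ppara, the fatty acid receptor, had 66.7 and 64.7 CPM in the controls and 74.5 and 106 CPM in mice 3 and 4. Foxa1 had 33 and 15.4 CPM against 15 and 12.8 CPM, so control mouse 1 stood far above the other 3. The most abundant, Cebpa and Rxra, had log2 fold changes of 0.12 (SE 0.162) and 0.056 (SE 0.159). Of 15 tested targets of the xenobiotic receptors and Nrf2, Gsta1 alone was called, beside 7.43% of all genes, with 3.46 and 5.75 CPM against 17 and 6.90 CPM (log2 fold change 1.36, SE 0.427); the most abundant, Cyp3a11 and Gstm1, had log2 fold changes of -0.29 (SE 0.156) and 0.41 (SE 0.216). For this list, 3 were called higher without control mouse 2, 2 higher without mouse 4, and 1 higher and 2 lower without mouse 3. Of 13 genes of other conjugation routes, Sult2a8, a bile acid sulfotransferase, was called lower (log2 fold change -0.47, SE 0.171), beside 3.39% of all genes in that direction. The most abundant, Mgst1, had a log2 fold change of 0.0088 (SE 0.211). The call of Sult2a8 was lost without control mouse 2 or without mouse 3, and the calls of this list varied with the mouse left out.

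Because Ugt2b1 and Ugt2b38 are known to be male-biased in mouse liver, lists of sex-biased liver genes were counted too. The lists were chosen with earlier results of these data known, so their counts are a description and not independent support. Of 14 male-biased genes, 0 were called higher and 7 lower at an unadjusted p under 0.05, beside 4.04% and 3.39% of all genes in those directions, with a median log2 fold change of -0.35; without scaling for library size 1 was called lower and the median was -0.041. Without control mouse 1, or without mouse 4, 1 was called higher and 4 lower. Called or not, 11 of the 14 had a fitted level below the controls and 3 above. The 7 called lower include C6 (209 and 145 CPM in the controls, 99.6 and 79.1 CPM in mice 3 and 4), Susd4 (23.8 and 26.7 CPM against 14.2 and 17.5 CPM), Cyp2u1 (51.1 and 58.6 CPM against 42.3 and 32.4 CPM) and Slco1a1, which is also among the transporters. The most abundant, Serpina3k and Mup20, went opposite ways, with log2 fold changes of -0.67 (SE 0.214) and 0.56 (SE 0.264). Of 18 female-biased genes 8 passed the filter, 4 of which were called higher and 1 (Cyp2c40) lower, beside 4.04% and 3.39% of all genes. Cyp2a4 and Cyp2b13 passed the filter through the libraries labelled HuR hKO, so this count is a description only; the lower count was 0 without control mouse 2 or without mouse 3. Cyp2a4, a steroid hydroxylase, had 0.828 and 0.523 CPM in the controls and 28.1 and 10.6 CPM in mice 3 and 4, Cyp2b13 had 0.677 and 1.05 CPM against 3.91 and 5.20 CPM, and Cyp2b9 had 6.47 and 8.88 CPM against 16.7 and 27.2 CPM. The most abundant of this list, Acot3 and Prlr, had log2 fold changes of 0.45 (SE 0.680) and -0.037 (SE 0.160). Over all 9 lists, 0 of 97 tested entries had an adjusted p under 0.05 in edgeR's test. At an unadjusted p under 0.05, 9 were higher and 12 lower, beside 4.04% and 3.39% of all genes. The 12 hold Slco1a1 in each of its 2 lists, and the 9 include Cyp2a4 and Cyp2b13, so these counts are a description only. For an adjusted p under 0.05, edgeR's exact test, DESeq2 and the test without scaling each gave 5 entries, and there were 7 without a filter on low counts. Leaving out 1 library gave 6 such entries without control mouse 2, 2 without control mouse 1, 1 without mouse 4 and 0 without mouse 3. Without control mouse 1 the lower count was 7, and without scaling the counts were 16 higher and 1 lower.

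Summed markers of other liver cells stood apart between the groups for some cell types and overlapped for others. The 6 endothelial markers summed to 158 to 179 CPM in the controls and 186 to 206 CPM in the libraries labelled HuR hKO. The 7 Kupffer cell and macrophage markers summed to 164 to 168 and 174 to 189 CPM, with 4 of the 7 (Clec4f and Cd5l the most abundant) above the controls and 3 (Marco among them) below, and the 6 stellate cell markers to 286 to 294 and 306 to 346 CPM. Cholangiocyte markers summed to 28.1 to 56.0 and 40.5 to 50.8 CPM, with Krt19 at 12.2 CPM in control mouse 1 and at most 1.81 CPM in the other 3 livers, and lymphocyte markers to 3.16 to 6.72 and 5.89 to 6.00 CPM. Of 10 markers of intestine, kidney and pancreas, Alpi, Kap and Slc12a1 were at 0, and the sum (129 to 198 and 172 to 242 CPM) was mostly Fabp2, which liver also makes. The endothelial, Kupffer cell and stellate cell sums were higher without overlap in the libraries labelled HuR hKO, as were Ugt1a9 and 19.3% of all genes. For 5 members the groups were apart in the lower direction, as for 18.8% of all genes. The cholangiocyte and lymphocyte sums overlapped. At an unadjusted p under 0.05 in edgeR's test, 0 endothelial, 0 Kupffer cell and 1 of the 6 stellate cell markers were called. The part of these cells in the member results was not tested.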

How the data were processed

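Liver RNA of 4 mice was sequenced, and the authors deposited whole-number raw read counts per Ensembl gene, 1 column per animal. The submitters' notes name RSEM and GRCm38, so the deposited counts may be rounded estimates; aligner, strand and the treatment of reads matching several genes are not given in the sources used here. No column (0) was left unused. The labels name each mouse, so the replicates are separate animals.

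Genes with at least 10 counts by edgeR's filter (total at least 15) were kept and compared with edgeR 4.0.16 (R 4.3.3, limma 3.58.1) by the quasi-likelihood test with TMM factors, adjusted by the Benjamini-Hochberg method over 13001 genes. The test was checked on simulated data. Alternatives were DESeq2 1.42.0, limma-voom, edgeR's exact and robust tests, other scalings and filters, and leaving out each mouse. A fold change of 1.8 with p under 0.05 follows the study's legend. Level per length used merged exons of GENCODE M21. Shared words and coding identity (Biopython pairwise alignment) replaced the planned protein identity, for which no protein table was used here. Promoter sequences are RefSeq's. Figures were drawn with matplotlib.

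The members and lists were chosen with earlier results of these data known. Named are all members, other Ugt symbols with a count, of each list up to 4 genes by smallest p under 0.05 and the 2 most abundant, up to 3 genes of a marker list, Elavl1, and the 3 genes nearest in pattern to members past the fold and p rule. A gene that this rule names is not reported here. Other genes named were chosen after their values were seen: Ugdh, Abcc2 and, at 0 counts, Ugt2a1 and Ugt2a2. Per library, 3 counts set the limit that a count of 0 allows.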

Additional observations from a re-analysis of the deposited data

How the results depend on the processing

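Ugt1a9 stayed higher and Ugt2b38 lower, each past the fold and unadjusted p rule, in all 14 alternatives. The number of members with an adjusted p under 0.05 was 1 without scaling (Ugt1a9, among 155 genes in all) and 2 (Ugt1a9 and Ugt2b38) without a filter (161 of 21432 genes), with the exact test (119 genes) and with DESeq2 (85 genes), against 0 members and 3 genes as reported; leaving out 1 mouse gave 0 to 1, the 1 being Ugt1a9 without control mouse 1 (43 genes). Without scaling, which moves the median of all genes to 0.31, 7 members stood above the controls, and the groups were apart for 5 higher and 1 lower. The log2 changes of Ugt2a3 (0.029), Ugt2b5 (0.12), Ugt2b34 (0.054), Ugt2b35 (0.18), Ugt2b36 (0.31) and Ugt1a6a (0.13) turned positive. So did the sums of the Ugt1a rows (0.034) and Ugt2 members (0.095). The listed genes, counted in each list that holds them, with an unadjusted p under 0.05 in edgeR's test were 16 higher and 1 lower. Leaving out 1 mouse gave 1 to 2 members above the controls (Ugt2b36 ran from -0.065 to 0.016, above 0 without mouse 3, and Ugt2b35 from -0.31 to 0.047, above 0 without mouse 4), and 7 to 11 listed genes lower, the 7 without control mouse 1. A lone mouse left in a group is taken to vary like the other group. Words of 31 and 100 bases gave 6 and 5 members sharing over 10% of their words (5 with 50). Lengths of the longest transcript kept the order of control levels. Among the members they differ from merged exons only for Ugt2b36 (1888 against 2059 bases) and Ugt1a6a (3342 against 4312 bases), so this check could hardly change the order. The mapped Ugt1a6a transcript, with 986 own and 1311 common bases, is shorter, and the order with its length was not computed. With 2 mice a group, small differences were not detectable. No paired analysis was possible because the groups share no replicate number.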
